A study of Mus musculus with 2 samples.

Results

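Glycolysis turns glucose into pyruvate in the cytosol, and many of its steps can be run by more than 1 gene product. The 35 genes described here encode glucose and lactate transporters, the enzymes of glycolysis with their isoenzymes, the enzymes and kinases that set pyruvate entry into mitochondria, and the main enzymes of the pentose phosphate pathway. They were given as a list of symbols, and their probes were found through the RefSeq accession in each probe's systematic name. All 35 matched, through 51 probes, and all 35 were well above background on both arrays, out of 13379 named genes measured on at least 1 array. Isoenzymes differ in substrate affinity, regulation and tissue. Blood stem cells of adult marrow are known for a low oxygen setting and a strong use of glycolysis, with pyruvate dehydrogenase kinases holding back pyruvate entry, while fetal liver stem and progenitor cells are known to cycle actively.

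The RNA came from LSK cells, which lack lineage markers, carry Sca-1 and c-Kit on the surface and include blood stem cells and multipotent progenitors. The first sample was bone marrow LSK cells of wild type C57BL/6 mice at 8 weeks of age with no transplantation. The other was fetal liver LSK cells of wild type mice at embryonic stage E14.5 with no transplantation, and the labels used here give no strain for it. Each group is 1 sorted sample on 1 single-colour array, so tissue, age and slide cannot be told apart and no test across samples is possible. Of the markers used for the sort, Kit had signals of 4074 in bone marrow against 3062 in fetal liver, a log2 difference of 0.01 after scaling and -0.33 under spike-in scaling, and Ly6a, which encodes Sca-1, 3846 and 594, a difference of -2.28. All 10 genes of the LSK marker list were well above background on both arrays.

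Values are processed signals, which are arbitrary brightness units. Differences are log2 signals of fetal liver minus bone marrow after each array was scaled to its 75th percentile, which was 178.9 for bone marrow against 134.0 for fetal liver. The value after ± is the error that the image software gives for the signals. It is technical and hardly varies among bright probes, being 0.204 for Gpi1, Aldoa and Gapdh alike. A difference beyond it exceeds the error that the software assigns and says nothing of the spread between animals. With 1 array per group, the error between repeated arrays was not measured. Levels of different genes are not compared, since each probe has its own response. Spike-in controls, RNAs added in known amounts, differed by a median of 0.34 after this scaling. That median rests on 8 controls above background on both arrays, with an SD of 0.19 between them. Scaling by them moved the median of all genes from 0.11 to -0.23. A direction is therefore given with the result of that scaling where it turns, and differences between isoenzymes are given too, which a constant factor per array cannot change. In bulk samples, fewer cells of a type and less RNA per cell cannot be told apart.

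Sequence before the start sites of 7 of the genes is shown because 4 of them are at least 2-fold apart between the arrays and the aldolase and lactate dehydrogenase pairs went opposite ways. Each is the 250 bases before a RefSeq start site on build GRCm38.p6, read 5′ to 3′ on the gene's strand. Capitals mark ACGTG or GCGTG on either strand, the core letters to which hypoxia-inducible factors can bind. Where a gene has several start sites, the window with the most such matches was taken, and the most upstream of equals.
Slc2a1, glucose transporter, chr4:119108495-119108744 (+): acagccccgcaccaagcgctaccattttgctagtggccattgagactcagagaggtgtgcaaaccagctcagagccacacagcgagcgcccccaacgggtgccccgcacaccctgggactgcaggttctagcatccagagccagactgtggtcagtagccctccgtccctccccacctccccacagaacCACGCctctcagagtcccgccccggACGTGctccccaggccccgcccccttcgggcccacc
Slc16a3, lactate exporter, chr11:120948817-120949066 (+): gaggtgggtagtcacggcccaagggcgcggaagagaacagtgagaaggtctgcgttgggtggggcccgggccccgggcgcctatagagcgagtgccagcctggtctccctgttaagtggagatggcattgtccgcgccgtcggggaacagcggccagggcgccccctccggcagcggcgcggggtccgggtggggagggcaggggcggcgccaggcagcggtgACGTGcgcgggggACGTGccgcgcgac
Hk3, hexokinase, chr13:55021386-55021635 (-): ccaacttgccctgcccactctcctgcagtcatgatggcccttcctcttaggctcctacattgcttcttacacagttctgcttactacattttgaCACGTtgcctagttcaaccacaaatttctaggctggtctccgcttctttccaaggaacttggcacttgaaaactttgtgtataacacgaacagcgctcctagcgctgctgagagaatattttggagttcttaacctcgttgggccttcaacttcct
Aldoa, aldolase A, chr7:126799255-126799504 (-): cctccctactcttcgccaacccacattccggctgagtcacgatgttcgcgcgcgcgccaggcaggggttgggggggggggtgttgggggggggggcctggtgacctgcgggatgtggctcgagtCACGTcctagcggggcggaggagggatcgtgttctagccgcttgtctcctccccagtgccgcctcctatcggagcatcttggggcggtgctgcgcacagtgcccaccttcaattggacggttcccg
Aldoc, aldolase C, chr11:78322823-78323072 (+): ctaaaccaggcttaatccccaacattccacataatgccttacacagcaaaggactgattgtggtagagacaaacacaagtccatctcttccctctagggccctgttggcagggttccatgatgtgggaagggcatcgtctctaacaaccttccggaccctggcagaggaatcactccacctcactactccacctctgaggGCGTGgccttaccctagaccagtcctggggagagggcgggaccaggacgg
Ldha, lactate dehydrogenase A, chr7:46845554-46845803 (+): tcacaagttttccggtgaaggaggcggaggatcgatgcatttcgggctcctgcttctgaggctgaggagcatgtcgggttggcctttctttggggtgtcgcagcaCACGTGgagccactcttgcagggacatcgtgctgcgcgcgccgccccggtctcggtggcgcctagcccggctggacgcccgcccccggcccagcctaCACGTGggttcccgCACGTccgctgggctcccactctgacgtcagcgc
Ldhb, lactate dehydrogenase B, chr6:142507958-142508207 (-): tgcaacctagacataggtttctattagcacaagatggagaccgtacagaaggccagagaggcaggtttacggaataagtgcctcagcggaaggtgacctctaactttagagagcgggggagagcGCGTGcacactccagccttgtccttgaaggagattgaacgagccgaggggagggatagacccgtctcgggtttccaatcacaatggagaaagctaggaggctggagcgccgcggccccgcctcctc

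Since windows were picked for their matches, a match in the windows shown was favoured by that choice, and the first Aldoa window, not shown, had 0. Ldha had 5 matches, 4 of which come from 2 copies of the palindrome CACGTG, read on both strands, while Ldhb, Aldoa, Aldoc and Hk3 had 1 each in the window shown and Slc2a1 and Slc16a3 had 2 each. Windows were found for 34 of the 35 genes, 54 windows in all, and 41 of these (75.9%) held ACGTG or GCGTG, against 38.6% of all 32851 windows of the same length. Base composition differs too, with a median GC content of 59.4% in the windows of these genes and 52.4% in all windows, and its part in the difference was not tested. The GC box GGGCGG, on either strand, was in 26 member windows (48.1%) and in 32.7% of all windows. CACGTG, which contains ACGTG, was in 6 member windows (11.1%) and in 6.02% of all. Windows of 1 gene can overlap, and a match is a run of letters, not a bound site. Pfkfb1, the other gene past 2-fold, had a match in 1 of its 4 windows. No match was found in any window of Gpi1, Tpi1 or Eno2.

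Of the 35 genes, 3 were higher in fetal liver by 2-fold or more, the transporters Slc2a1 and Slc16a3 and the regulatory enzyme Pfkfb1, and 2 were higher in bone marrow by that much, Hk3 and Aldoc. These counts are 8.57% and 5.71% of the members. Over all 13379 genes measured, 6.7% passed 2-fold toward fetal liver (897 genes) and 8.11% toward bone marrow (1085 genes), so the members' shares lie near those of all genes. Under spike-in scaling the split over all genes was 505 (3.77%) against 1748 (13.1%), and for the members 2 against 2, with Slc2a1 falling below 2-fold. The median difference of the 35 genes was 0.10, beside 0.11 for all genes measured, and 18 members were above 0 (57.7% of all genes were). The other 30 genes lay between -0.52 and 0.95, with 15 above 0 and 15 below. This split follows the scaling, since of all 35 genes 18 were above 0 and 17 below as reported, and 11 above and 24 below under spike-in scaling.

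**Figure D1:**
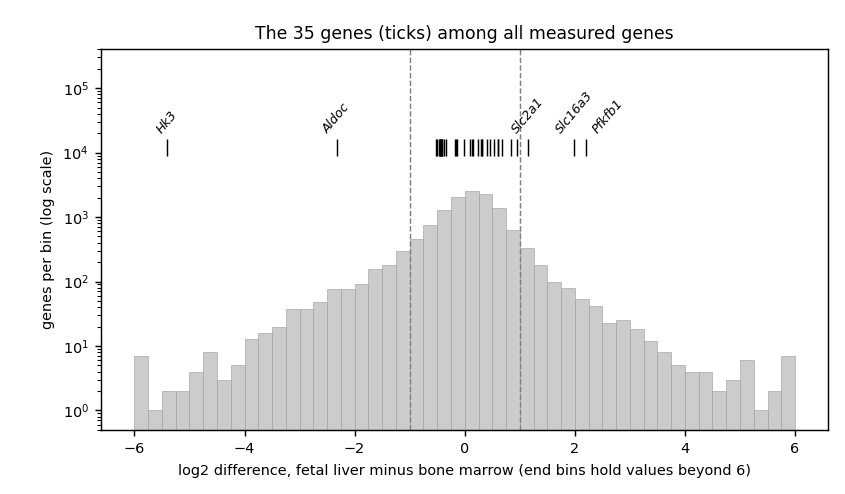
Histogram of the log2 difference, fetal liver minus bone marrow, over all 13379 measured genes (grey bars, log scale), with the 35 glycolysis and glucose handling genes as ticks and 2-fold as dashed lines. The ticks of 30 genes lie between the dashed lines and those of Hk3 at -5.42 and Aldoc at -2.33 lie far to the bone marrow side.

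**Figure D2:**
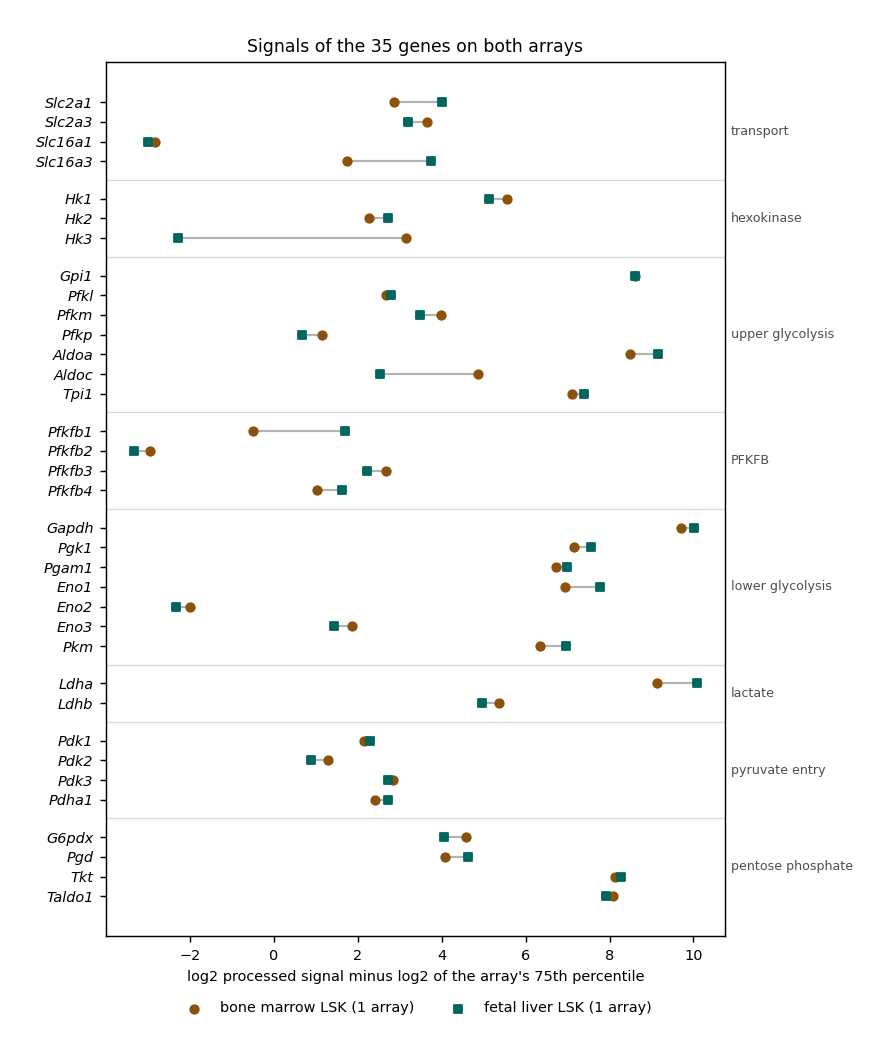
Scaled log2 signal of each of the 35 genes in bone marrow LSK (circles) and fetal liver LSK (squares), 1 array each, grouped by step of the pathway. The longest lines join the circles and squares of Hk3, Aldoc, Pfkfb1 and Slc16a3, and levels of different genes cannot be compared along the axis.

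Transport across the cell membrane held 2 of the 3 genes past 2-fold on the fetal liver side. Slc2a1, which encodes the widespread glucose transporter GLUT1, gave 1299.8 in bone marrow against 2157 in fetal liver, a difference of 1.15 ± 0.20 or 2.22-fold. Spike-in scaling brought it to 0.81. Slc2a3 encodes GLUT3, a transporter of high glucose affinity, and went the other way, with 2235 in bone marrow and 1229.8 in fetal liver (-0.44 ± 0.20). The 2 glucose transporters thus differed from each other by 1.59 ± 0.29 on the log2 scale, and by 1.58 to 1.65 over the processing alternatives. With 1 probe per gene, most of these alternatives cannot move that value.

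Lactate leaves cells through monocarboxylate transporters. Slc16a3, the exporter typical of strongly glycolytic cells, rose from 603 in bone marrow to 1789.8 in fetal liver, 3.96-fold higher in fetal liver (1.99 ± 0.20). Its other probe gave 2.15, and the gene ranked 219 of 13379 from the fetal liver end. Slc16a1, a transporter that can carry lactate either way, was dim, at 24.9 and 16.6, and differed by -0.16 ± 0.31, within its error and with the opposite sign under normexp background correction (0.10). The lactate transporter genes differed from each other by 2.15 ± 0.37. Bsg, which encodes the chaperone that carries both transporters to the membrane, had signals of 1565 and 1306 and a difference of 0.16 ± 0.20, or -0.18 under spike-in scaling.

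Hexokinases trap glucose in the cell by phosphorylating it, and of the 3 genes listed Hk3 stood far apart from the other 2. Hk3 gave 1575 in bone marrow against 27.6 in fetal liver, 42.7-fold higher in bone marrow (-5.42 ± 0.24), which placed it at rank 9 of 13379 from the bone marrow end. It was above background on both arrays, so this is a measured difference, although the fetal liver signal was dim. With normexp background correction, which adds an offset to dim and bright signals alike, it was -3.68. Hk1, the broadly expressed hexokinase bound to mitochondria, had 8386 in bone marrow and 4705 in fetal liver (-0.42 ± 0.20), and its other probe gave -0.55. Hk2, the inducible isoenzyme of growing and glycolytic cells, had 864 and 888, a difference of 0.46 ± 0.20 that shrank to 0.12 under spike-in scaling. Hk2 and Hk1 thus differed by 0.87 ± 0.29 and Hk1 and Hk3 by 5.00 ± 0.31.

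Hk3 is known as the hexokinase of myeloid cells, so neutrophil markers are given beside it, and then macrophage and monocyte markers. Of 12 neutrophil genes listed, 10 were measured on these arrays, and 6 of these passed 2-fold toward bone marrow and 0 toward fetal liver. Their summed signal was 154163 in bone marrow and 91094 in fetal liver, or 862 and 679.9 times the 75th percentile. The granule gene Ngp had signals of 223.9 and 13.2 and the lectin gene Chil3 674 and 19.8. Mpo, the myeloperoxidase gene of myeloid progenitors, had 117531 and 72987 (-0.27), which is most of the summed signal on both arrays. S100a8, S100a9 and Ltf also stayed under 2-fold, at 0.15 (-0.18 under spike-in scaling), -0.26 and -0.31. Cd177 was dim on both arrays and no probe was matched for Ly6g. The part of these cells in the Hk3 difference was not tested.

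Upper glycolysis contains the committed step and the split into triose phosphates. Gpi1, the isomerase after hexokinase, had 69649.7 in bone marrow and 51922 in fetal liver, and its 3 probes differed by -0.06 to -0.01. This gene therefore moved with the 75th percentile of the arrays. Phosphofructokinase is built from liver, muscle and platelet type subunits, of which Pfkl had 1149 and 920.04 (0.10 ± 0.20, and -0.24 under spike-in scaling). Pfkm had 2807 in bone marrow and 1491 in fetal liver (-0.50 ± 0.20), and its probe was printed as 10 spots whose log2 signals had an SD of 0.03 on each array. Pfkp had 393 and 213 (-0.47 ± 0.20), but its dimmer probe gave -0.11. The subunit genes Pfkl and Pfkm differed by 0.59 ± 0.29, just past 2 technical errors (0.55 with normexp, just short of it), and Pfkl and Pfkp by 0.57 ± 0.29, just short of it.

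Aldolases gave the clearest split after the hexokinases. Aldoa, the main aldolase of most tissues, had 64405 in bone marrow and 76994 in fetal liver (0.67 ± 0.20), and Aldoc, known best as the brain isoenzyme, had 5216 and 779. Aldoc was 5.02-fold higher in bone marrow (-2.33 ± 0.20) and ranked 256 of 13379 from the bone marrow end. The aldolase genes differed from each other by 3.00 ± 0.29, with a range of 2.80 to 3.01 over the alternatives, most of which cannot move a pair with 1 probe per gene. Tpi1, triose phosphate isomerase, has no isoenzyme in the list, and its probes gave 0.29 and 0.18, while spike-in scaling turned its sign (-0.05).

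The PFKFB enzymes make and break the sugar phosphate that activates phosphofructokinase, each with its own balance of kinase and phosphatase activity. Pfkfb1, the form known from liver and muscle, had 125.8 in bone marrow and 432 in fetal liver, 4.59-fold higher in fetal liver (2.20 ± 0.21) and rank 176 from that end. Pfkfb4 had 362 and 410 (0.60 ± 0.20), and its sign was kept under every scaling tried (0.26 to 0.60). Pfkfb3, the form with the strongest kinase activity, had 1137 and 625 (-0.45 ± 0.20), and its other probe gave -0.21. Pfkfb2 was dim at 23.1 and 13.3 and its difference of -0.37 ± 0.37 was about the size of its error, with 0.18 under normexp. Pfkfb1 and Pfkfb3 thus differed by 2.64 ± 0.29 and Pfkfb4 and Pfkfb3 by 1.05 ± 0.29, or 2.17 and 0.74 with normexp.

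Because Pfkfb1 is a liver form, hepatocyte and erythroid markers are given beside it. The hepatocyte genes Alb, Ttr, Apoa1 and Ahsg were not well above background on either array, with Alb at 2.97 in bone marrow and 2.42 in fetal liver, and the list's summed signal was 14932 in bone marrow and 5148 in fetal liver. Most of this sum was Trf alone, at 12442 and 3868. Of the 5 hepatocyte genes measured, 3 passed 2-fold toward bone marrow and 0 toward fetal liver. The 3 were Trf, Afp and Fgb, the last not well above background in fetal liver. Apoa2 and Serpina1a were under 2-fold, at 0.24 (-0.10 under spike-in scaling) and 0.75. Erythroid genes were higher in fetal liver, 6 of 11 measured by at least 2-fold and 0 the other way, with a summed signal of 22310 against 111904, led by the globin gene Hbb-bt at 16971 and 101150. The part of erythroid RNA in the difference of Pfkfb1 was not tested.

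Lower glycolysis, from glyceraldehyde phosphate to pyruvate, held no gene past 2-fold. Positive differences were found for 5 of its 7 members, beside 57.7% of all genes measured, so no trend of this step is read from the count. Gapdh, often used as a reference gene, had 149369 in bone marrow and 138654 in fetal liver (0.31 ± 0.20). Its 7 probes ran from -0.09 to 0.43, and its sign turned under spike-in scaling (-0.03). Pgk1, the first enzyme of the pathway to make ATP, had 25311 and 25216 (0.41 ± 0.20), and Pgam1, phosphoglycerate mutase, had 19034 and 16889 (0.24 ± 0.20). Spike-in scaling left Pgk1 at 0.08 and turned Pgam1 to -0.09. None of these 3 differed by more than its technical error under spike-in scaling.

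Enolases and pyruvate kinase stood further apart. Eno1, the enolase of most tissues, had 21889 in bone marrow and 29416 in fetal liver (0.84 ± 0.20, and 0.51 under spike-in scaling). The probe of Eno1b, a near-identical copy, gave almost the same signals, 22254 and 30024, so the copies were not told apart here. Eno3, the muscle enolase, had 646 and 360 (-0.43 ± 0.20), and Eno2, the neuronal enolase, was dim at 45.0 and 26.6 (-0.34 ± 0.25). Eno1 thus differed from Eno3 by 1.27 ± 0.29 and from Eno2 by 1.18 ± 0.32. Pkm, the pyruvate kinase gene of most tissues, had 14563 and 16683 (0.61 ± 0.20, and 0.28 under spike-in scaling), and its splice forms were not told apart.

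Lactate dehydrogenase interconverts pyruvate and lactate, and its subunit genes went opposite ways. Ldha, whose subunit favours lactate formation, had 100162 in bone marrow and 144867 in fetal liver (0.95 ± 0.20), the member closest to the 2-fold line from inside. Its other probes gave 0.90 and 0.54, and spike-in scaling gave 0.61. Ldhb, whose subunit favours the return to pyruvate, had 7375 and 4151 (-0.41 ± 0.20). The subunit genes differed by 1.36 ± 0.29, with a range of 0.95 to 1.48 over the alternatives.

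**Figure D3:**
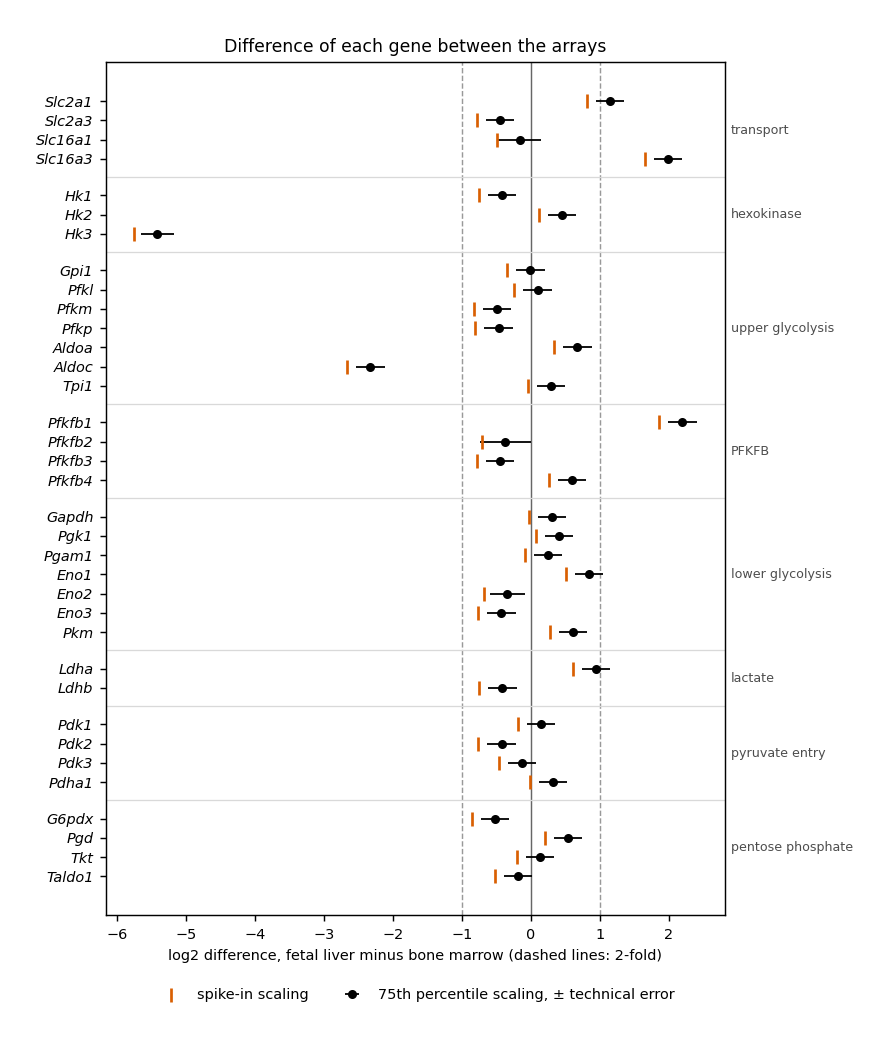
Log2 difference, fetal liver minus bone marrow, of each of the 35 genes (points, with bars of 1 technical error) and the value under spike-in scaling (orange ticks), with 2-fold as dashed lines. In the lactate, enolase and aldolase steps the genes Ldha, Eno1 and Aldoa lie right of 0 under both scalings and Ldhb, Eno3 and Aldoc lie left of it. Spike-in scaling lowered every value, so it could not turn Ldhb, Eno3 or Aldoc.

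**Figure D4:**
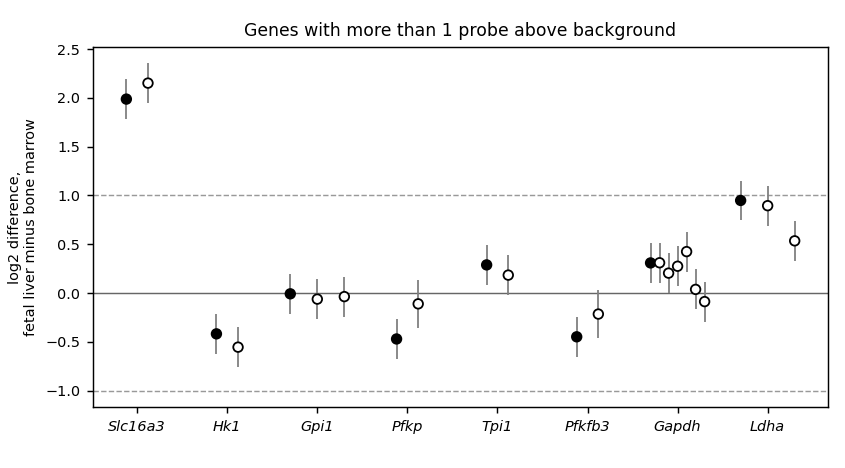
Log2 difference, fetal liver minus bone marrow, of every probe above background for the 8 genes that have more than 1 (filled point, the brightest probe, which stands for the gene; bars, 1 technical error). Both Slc16a3 probes lie near or above 1.99, and Gapdh is the gene whose probes lie on both sides of 0.

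Entry of pyruvate into the mitochondrial citric acid cycle is gated by pyruvate dehydrogenase and by the kinases that switch it off. None of the 4 genes listed for this step passed 2-fold. Pdk2 had 441 in bone marrow and 246 in fetal liver (-0.43 ± 0.20), Pdk3 had 1284 and 877 (-0.13 ± 0.20) and Pdk1, a target of hypoxia-inducible factors, had 790 and 654 (0.14 ± 0.20, and -0.19 under spike-in scaling). No pair of the 3 kinase genes differed by more than 2 technical errors, Pdk1 and Pdk2 lying farthest apart at 0.57 ± 0.29. Pdha1, the catalytic subunit, had 954 and 889.6 (0.32 ± 0.20, and -0.02 under spike-in scaling). Pdk4, the starvation-induced kinase, which is not among the 35, gave 14.1 in bone marrow and 2.21 in fetal liver, not well above background there, and its bound was under 2-fold. Mpc1 and Mpc2, the subunits of the mitochondrial pyruvate carrier, differed by -0.01 ± 0.20 and 0.11 ± 0.20, or by -0.34 and -0.23 under spike-in scaling.

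The pentose phosphate pathway supplies NADPH and ribose, and its entry enzymes went opposite ways. G6pdx, the rate-limiting dehydrogenase at the entry, had 4239 in bone marrow and 2212 in fetal liver (-0.52 ± 0.20), the largest decrease toward fetal liver among the 30 genes under 2-fold. Pgd, the next dehydrogenase, had 3033 and 3303 (0.54 ± 0.20, and 0.20 under spike-in scaling). The non-oxidative enzymes Tkt, transketolase, and Taldo1, transaldolase, had 50024 and 41130 (0.13 ± 0.20) and 48786 and 32204 (-0.18 ± 0.20). Both lay within their errors as reported. Under spike-in scaling Tkt turned to -0.20 and Taldo1 was at -0.52, past 2 technical errors.

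Compared by isoenzyme, 15 of 22 pairs within the 9 gene families differed from each other by more than 2 technical errors. The pairs are written with the higher gene first, so their sign is set by that choice. Pairs of other genes were not counted, and since 25.1% and 17.5% of single genes passed 2 errors toward fetal liver and bone marrow, nothing particular to isoenzymes is read from the 15. Against the same errors, 2 of the 15 pairs fell short with normexp, Pfkl and Pfkm at 0.55 and Pfkfb4 and Pfkfb2 at 0.13. Aldoa, Eno1 and Ldha were higher in fetal liver while Aldoc, Eno2, Eno3 and Ldhb were lower there, under every background correction and scaling tried. Hk2 and Slc2a1 likewise stood opposite to Hk1 and Slc2a3. The constant scalings tried all lowered the differences, so for the lower genes only normexp or quantile normalization could have turned the sign. Quantile normalization gives both arrays the same spread of values. The 7 pairs within 2 errors were the 3 kinase pairs, Pfkl and Pfkp, Pfkp and Pfkm, Eno2 and Eno3, and Pfkfb2 and Pfkfb3. Over the processing alternatives the order of Pfkfb2 and Pfkfb3 changed, from -0.16 to 0.61.

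**Figure D5:**
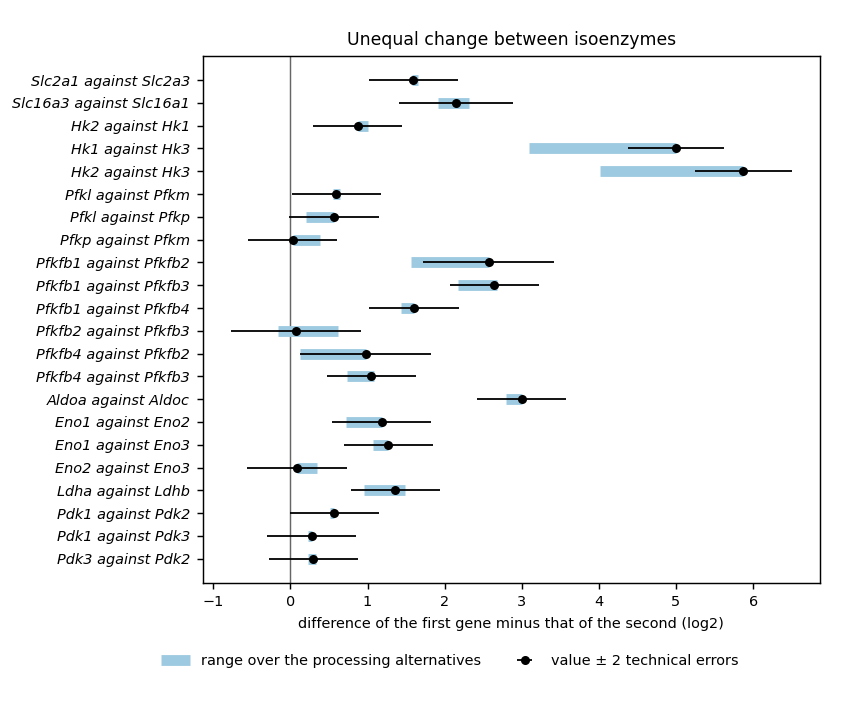
Difference of 1 isoenzyme gene minus that of another on the log2 scale, for the 22 pairs within 9 families (points, with bars of 2 technical errors; blue bands, the range over the processing alternatives). Bars of 15 pairs clear 0, from Hk2 against Hk3 at 5.87 down to Pfkl against Pfkm at 0.59.

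Counted against the technical error alone, 11 of the 35 genes were more than 2 errors higher in fetal liver and 11 more than 2 errors higher in bone marrow. Of the 12258 genes above background on both arrays, 25.1% and 17.5% passed in these directions. Under spike-in scaling the members split 5 against 14, beside 9.83% and 34.3% of all genes, so this count follows the scaling. The sign was the same under every background correction and scaling tried for 26 genes, 11 higher in fetal liver (Slc2a1, Slc16a3, Hk2, Aldoa, Pfkfb1, Pfkfb4, Pgk1, Eno1, Pkm, Ldha and Pgd) and 15 higher in bone marrow. It was not for 9, namely Slc16a1, Pfkl, Tpi1, Pfkfb2, Gapdh, Pgam1, Pdk1, Pdha1 and Tkt. The 15 include Gpi1, at -0.01 as reported, and Eno2, at -0.05 with normexp. The scalings tried that shift all genes by a constant all lowered the differences. A gene below 0 could thus turn only under normexp or quantile normalization, so 11 against 15 is not an even comparison. No such count is given here for all genes, so nothing particular to the members is read from the kept signs.

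Of 110 further genes of glucose metabolism and its regulation, 109 had a probe and 93 were measured. Past 2-fold toward fetal liver were 5 (5.38%) and toward bone marrow 8 (8.60%), beside 6.7% and 8.11% of all genes, and their median was 0.09. Tigar, a phosphatase that directs sugar into the pentose phosphate pathway, had 86.2 in bone marrow and 187.4 in fetal liver (1.54 ± 0.21, other probe 1.28). Pdhx, a structural subunit of pyruvate dehydrogenase, had 256 and 452 (1.24 ± 0.20, and 0.90 under spike-in scaling).

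Of 6 genes of gluconeogenesis 3 were measured, 2 of them past 2-fold toward bone marrow. Fbp1, fructose bisphosphatase, which opposes phosphofructokinase, had 2525 in bone marrow and 215 in fetal liver, 8.80-fold higher in bone marrow (-3.14 ± 0.20). Pck2, the mitochondrial phosphoenolpyruvate carboxykinase, had 126.5 and 45.3 (-1.06 ± 0.22), and G6pc3, a broadly expressed glucose phosphatase, stayed under 2-fold (-0.83 ± 0.20). Ldhd, a dehydrogenase of the other lactate form, had 175.2 and 18.3 (-2.84 ± 0.28) and Slc2a6, a transporter of the lysosome, 433 and 70.0 (-2.21 ± 0.21), with -0.99 from its other probe. Galm, which interconverts the ring forms of sugars, had 63.2 and 14.7 (-1.69 ± 0.30). Uap1, of the hexosamine branch, had 2234 and 697 (-1.26 ± 0.20) and Phka1, a subunit of the kinase that activates glycogen breakdown, 132.5 and 43.4 (-1.19 ± 0.22).

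Among 21 regulators, 2 passed 2-fold toward fetal liver and 1 toward bone marrow. Mycn, a Myc family transcription factor, had 684.5 in bone marrow and 3529 in fetal liver (2.78 ± 0.20), while Myc itself, known to drive glycolytic genes, had 2766 and 1426 (-0.54 ± 0.20). Lin28b, an RNA-binding protein of fetal cells that promotes glucose metabolism, reached 1558 in fetal liver and was not well above background in bone marrow. This makes it higher in fetal liver by at least 168-fold. Here a bound sets the bright signal against the lowest one called well above background on the dim array, 12.4 in bone marrow and 9.82 in fetal liver. Its other probe gave a bound of 3.13 on the log2 scale. Prkaa2, a catalytic subunit of the energy sensor AMPK, had 56.4 in bone marrow and 2.18 in fetal liver, not well above background there, and was higher in bone marrow by at least 4.30-fold. Hif1a, the inducible subunit of hypoxia-inducible factor, had 271 and 267 (0.39 ± 0.20, and 0.06 under spike-in scaling). Txnip, which limits glucose uptake, had 2058 and 1346 (-0.20 ± 0.20).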

How the data were processed

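RNA of 1 bone marrow and 1 fetal liver LSK sample was measured on single-colour Agilent arrays, from 20 ng of total RNA per the labels' protocols. Per the file headers, the deposited intensity values are processed signals of Agilent Feature Extraction 10.7.1.1, background-subtracted and spatially detrended, with no scaling between arrays. Flags of 0 or 1 per spot, an other kind of value per the file headers, marked outliers and spots well above background. The authors' deposited value table is a linear ratio, which equalled the processed signal over 1 constant per array (178.6 and 133.9) within 0.1% for 99.99% of probes printed as 1 spot. Its column medians were 0.0589 and 0.0604, so it is neither logged nor centred. How the constants were set is not given by the labels or headers, but they lie close to the arrays' 75th percentiles, 178.9 and 134.0. As an alternative, this table therefore gave nearly the same differences as those reported.

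Of 59305 non-control spots, 137 and 122 outliers were left out, none was saturated, and spots of a probe were averaged. A probe counted as well above background when at least 50% of its spots did, which held for 47.4% and 46.4% of probes. Log2 signals were scaled to each array's 75th percentile. Symbols came from RefSeq (GRCm38.p6) for 27226 of 55664 probes, used for names only since the array was designed on an older build. A gene took its probe with the highest mean signal. Errors are those of Feature Extraction, combined over both arrays. The number of arrays, 1 per group, limits the precision, so genes were counted by size, at least 2-fold. All members are named, and of the other genes those at least 2-fold apart, at most 3 per direction and list, with Hif1a, Myc, Txnip, Pdk4, Mpc1, Mpc2 and Bsg whatever their value; Mpo, Ngp, Chil3 and the other marker genes were picked as examples after their values were seen. Markers of 9 cell types were listed. A few listed genes are not reported here. The members, lists and tests were chosen with earlier results of these data known.

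Alternatives numbered 12, among them normexp background correction with an offset of 50 (limma 3.58.1), fitted on spot medians because the spot means planned for it were not used here. The steps were tested on simulated data. Python 3.11.15, numpy 2.4.6 and pandas 2.3.3 were used.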

Additional observations from a re-analysis of the deposited data

How the results depend on the processing

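The counts of members at least 2-fold apart, 3 and 2, stayed within 1.5 times of these under all settings that kept the 2-fold limit, and no member past 2-fold changed sign. Much of this was fixed beforehand. All 35 members were above background on both arrays, so the settings on dim probes could not move them. Constant shifts of up to 0.34 could not turn a gene past 2-fold. The limit of 1.5 times also passed the fall from 3 to 2 toward fetal liver under spike-in scaling. At 1.5-fold, 8 members passed toward fetal liver and 2 toward bone marrow, the further genes gave 12 and 14, and all genes 2346 and 1985. Spike-in scaling lowered every member by 0.34, more than the technical error for 34 of 35, and gave a member median of -0.24, 13 further genes higher in bone marrow, and 505 and 1748 of all genes. Normexp gave 5 further genes higher in bone marrow and 379 and 606 of all genes, and moved 7 members by more than their error. Without the filter on dim probes 9 further genes were higher in fetal liver and all genes gave 1678 and 1645, and with only genes above background on both arrays 3 were. The dimmest probe moved 4 members by more than their error, Pfkp, Pfkfb3, Gapdh and Ldha. The cause of these shifts was not tested. Slide could not be fitted as a block, since each array lies on its own slide. No paired analysis was possible because each group has 1 sample and the result comes from no test. Signal over background limits Slc16a1, Pfkfb2 and Eno2, which lay close to the lowest signals called above background. The same limit holds on the fetal liver array for Hk3, Ldhd and Galm, at 27.6, 18.3 and 14.7.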
